A study of Saccharomyces cerevisiae with 55 samples.

Results

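The genes described here encode the subunits of the yeast proteasome and RPN4, the transcription activator of proteasome genes. They were chosen by name: every gene of the array whose symbol is PRE, PUP, RPN or RPT followed directly by digits, or is SCL1. This gave 34 genes of the 5540 measured, each with 1 probe, and all 34 passed the filter on missing values. The core particle holds 14 of them, 7 in its outer alpha rings (SCL1, PRE5, PRE6, PRE8, PRE9, PRE10, PUP2) and 7 in its inner beta rings (PRE1, PRE2, PRE3, PRE4, PRE7, PUP1, PUP3). The base of the regulatory particle holds 10, the 6 ATPases RPT1 to RPT6 and the non-ATPases RPN1, RPN2, RPN10 and RPN13. The lid holds 8, RPN3, RPN5, RPN6, RPN7, RPN8, RPN9, RPN11 and RPN12. The remaining members are RPN14, a chaperone of base assembly that is not a subunit of the finished particle, and RPN4 itself.

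The proteasome degrades proteins tagged with ubiquitin: the lid and base bind and unfold the substrate, and active sites on the beta rings cut it inside the core. In budding yeast, Rpn4 binds an element shared by the promoters of most proteasome genes and activates them. Rpn4 is itself a very short-lived substrate of the proteasome, so that the pair form a feedback loop, and RPN4 transcription also responds to heat shock and drug resistance factors.

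RNA of Saccharomyces cerevisiae strains was compared on 2-colour arrays. The mutants carry lysine-to-arginine substitutions (K5R, K8R, K12R, K16R) in the N-terminal tail of histone H4, in all 15 combinations. Arginine keeps the charge of lysine and cannot be acetylated. There were 12 samples of the 4 single mutants, 22 of the 6 double mutants, 16 of the 4 triple mutants and 4 of the quadruple mutant, 54 in all. Single mutants had 3 samples each. K5R/K12R and K8R/K12R had 3 each, and the doubles K5R/K8R, K5R/K16R, K8R/K16R and K12R/K16R had 4 each. K5R/K8R/K16R had 3 samples, K5R/K12R/K16R and K8R/K12R/K16R had 4 each, and K5R/K8R/K12R had 5. Every array set a mutant against a parental strain with intact lysines, MDY453 on 35 arrays or MDY470 on 20. The K8R/K12R arrays are of 1 strain and all against MDY470, and all those of K5R/K12R/K16R and the quadruple mutant are against MDY453. The labels give no growth medium, age or further genotype.

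Values are log2 ratios, likely mutant over parental: the parental strain is channel 1 of every array, and neither dyes nor direction are given in the sources used here. Some array titles carry a mark (s) whose meaning the labels do not give, and it was tried only as a fixed term. No array with the dyes turned is known, so a value that a probe shows on every array cannot be told apart from a dye effect. Tests of a mutant against 0 include such a shared value, while differences between mutants and the effects of single substitutions leave it out. The spread of all genes grew with the number of substitutions: the median SD over genes was 0.17, 0.27, 0.42 and 0.67 in samples with 1, 2, 3 and 4 of them. Samples correlated with the rest of their group down to 0.372 in replicate 2 and 0.547 in replicate 1 of K8R, a mutant with a small spread. The value was 0.551 in K12R/K16R replicate 2, which had the widest spread of the doubles (SD 0.40). Genes specific to mating type a, checked as cell type markers, had median log2 ratios of -3.48 to -1.11 in the 30 samples with K16R and of -0.11 to 0.29 in the 24 without, and their part in the K16R values below was not tested. For K16R, 7 of the 7 were lower, among them STE2, the alpha-factor receptor gene, at -2.69, and for the other 3 sites 4 were lower (STE2 at -0.34, MFA2 at -0.42, BAR1 at -0.25 and STE6 at -0.15). In K5R/K8R/K12R, where lysine 16 is intact, MFA2 was higher at 0.41 (adjusted p = 0.00479), and STE2 at -0.04, BAR1 at 0.08 and STE6 at -0.03 did not pass. All adjusted p-values are from limma with Benjamini-Hochberg adjustment over all genes, and a gene was called at an adjusted p under 0.05.

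RPN4 RNA was higher than in the parental strain in all 4 triple mutants and in the quadruple mutant. Its log2 ratio lay between -0.04 and 0.25 in the 12 samples of single mutants, between -0.14 and 0.38 in the 22 of double mutants and between 0.35 and 0.84 in the 16 of triple mutants. In the quadruple mutant the 4 samples had 1.29, 1.22, 1.00 and 1.43, a mean of 1.23 ± 0.18 (SD), or 2.33-fold over the parental strain in the fit (adjusted p = 1.66e-21). With arrays scaled to 1 spread the quadruple estimate was 0.55 and that of the triple K8R/K12R/K16R 0.60, so that the quadruple mutant was then not the highest. The quadruple samples lay above every other sample, and triples overlapped doubles only where 0.38 in 1 K8R/K16R sample exceeded 0.35 in 1 K5R/K12R/K16R sample. More cells with the RNA and more RNA per cell cannot be told apart in such cultures.

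Among the triple mutants, RPN4 averaged 0.52 ± 0.01 in K5R/K8R/K16R (n = 3, adjusted p = 3.74e-07), 0.56 ± 0.17 in K5R/K12R/K16R (n = 4, adjusted p = 1.36e-08) and 0.58 ± 0.12 in K5R/K8R/K12R (n = 5, adjusted p = 3.00e-10). It averaged 0.72 ± 0.09 in K8R/K12R/K16R (n = 4, adjusted p = 1.03e-11, limma). The ranges of neighbouring triples in this order overlap, and the triple with lysine 16 intact lies inside it. Of the 6 double mutants only K12R/K16R passed the test, at 0.27 ± 0.06 (n = 4, adjusted p = 0.0036), and K8R/K16R reached 0.18 ± 0.15 (n = 4, adjusted p = 0.061). The other 4 doubles and the 4 singles had means of 0.02 to 0.11, with overlapping ranges.

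**Figure D1:**
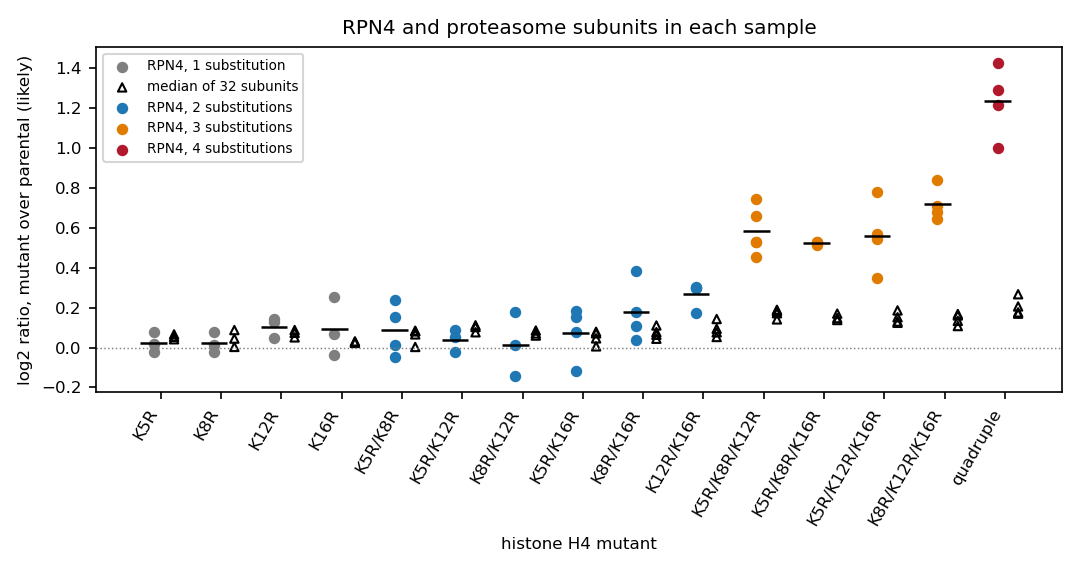
Log2 ratio of RPN4 (vertical axis, likely mutant over parental) in each of the 54 samples (filled points) of the 15 mutants (horizontal axis). Black lines are the RPN4 mean of each mutant, and open triangles are the median of the 32 subunits in each sample. For RPN4, the 4 quadruple samples sit between 1.00 and 1.43, above all triples, and the doubles sit between -0.14 and 0.38.

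Tested as steps in RPN4, the doubles differed from the mean of the 4 singles by 0.05 ± 0.05 (SE, adjusted p = 0.612). The triples exceeded the mean of the 6 doubles by 0.48 ± 0.05 (SE, 95% interval 0.39 to 0.58; 1.40-fold, adjusted p = 6.44e-12). The quadruple mutant exceeded the mean of the 4 triples by 0.63 ± 0.08 (SE; 1.55-fold, adjusted p = 1.29e-09). With arrays scaled to 1 spread the last step, quadruple over triples, was 0.08 (adjusted p = 0.511), a step that did not pass the test.

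In the additive fit of all 54 samples, the mean of the K5R, K8R and K12R effects on RPN4 was 0.34 ± 0.03 (SE; 1.26-fold, adjusted p = 1.11e-12), and K16R added 0.39 ± 0.06 (1.31-fold, adjusted p = 1.05e-07). K12R gave 0.39, K8R 0.36 and K5R 0.26, each past the test (adjusted p = 4.80e-08, 1.07e-06 and 1.61e-04). K16R exceeded the mean of the other sites by 0.06 ± 0.06 (adjusted p = 0.588). Within the arrays against MDY453 the mean of the 3 sites was 0.40 (adjusted p = 1.15e-09) and K16R 0.33 (adjusted p = 0.00145). Within those against MDY470 they were 0.22 (adjusted p = 0.00664) and 0.36 (adjusted p = 0.00806). The K5R effect on RPN4 was 0.17 against MDY470 alone (adjusted p = 0.239) and 0.08 with scaled arrays (adjusted p = 0.181), past the test in neither case. Without an intercept the mean of the 3 sites was 0.17, K16R 0.21 and K5R 0.08 (adjusted p = 0.376). The single mutants themselves averaged 0.02 in K5R, 0.02 in K8R, 0.11 in K12R and 0.09 in K16R. Each effect fitted with an intercept to all 54 samples exceeded the mean of its single mutant. Such an effect is therefore not the change seen with 1 substitution alone.

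Part of the proteasome subunits were higher as well, and a few lower. For the average effect of K5R, K8R and K12R, 17 of the 34 members were called higher and 3 lower, where 32.3% of all genes were called higher and 31.5% lower. The beta ring had 6 of 7 subunits higher, the lid 5 of 8 with 1 lower, the ATPases of the base 3 of 6, the alpha ring 2 of 7 with 1 lower, and the non-ATPases of the base 0 of 4. The median effect was 0.12 in the beta ring, 0.06 in the lid, 0.04 in the base, 0.04 in the alpha ring and 0.00 over all genes. Without quadruple replicate 3 or 5 the count of members lower was 1, and with the arrays against MDY470 alone 6 members were higher and 1 lower. For alternative settings and left-out samples, here and below, the share of all genes called was not counted.

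**Figure D2:**
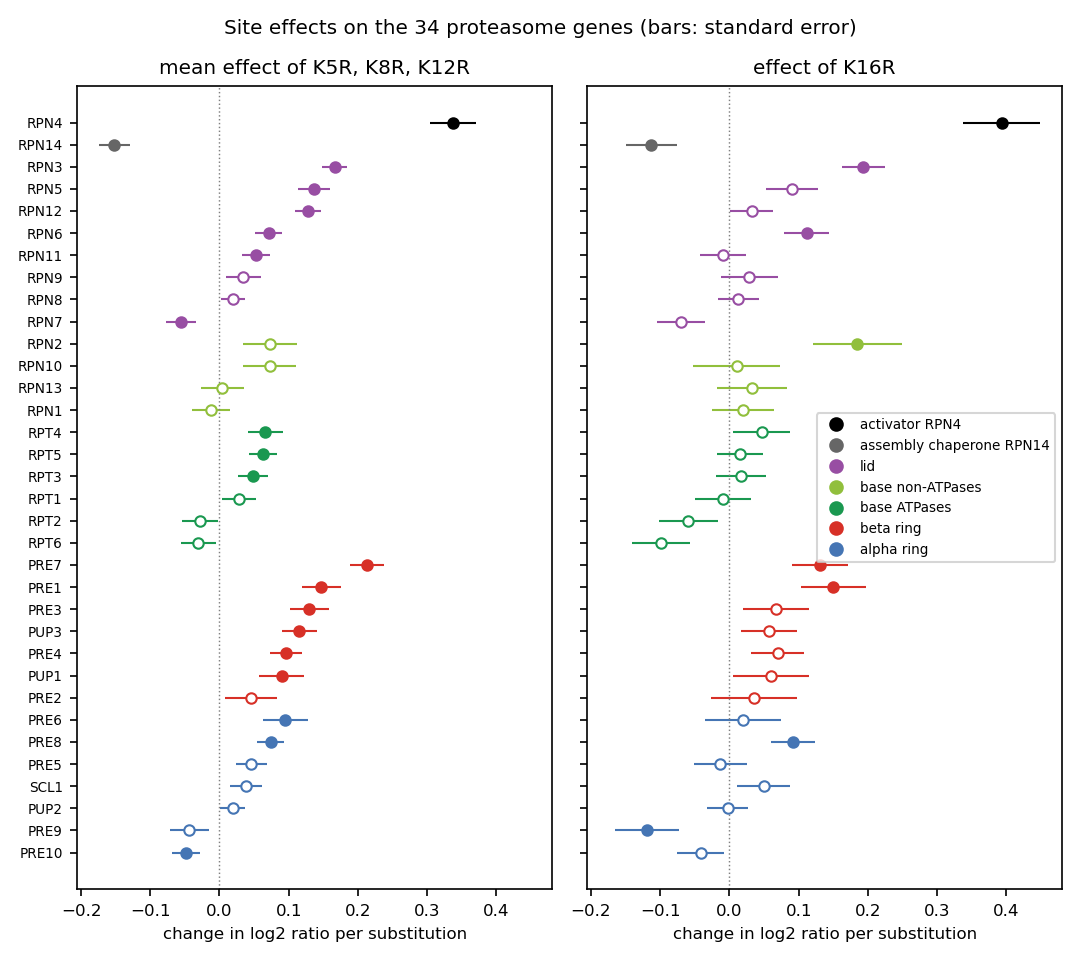
Effect on log2 ratio of each of the 34 members (rows, grouped by place in the particle). The average effect of K5R, K8R and K12R and the effect of K16R are shown as estimates from the additive limma fit. Bars are standard errors (SE) and are narrower than 95% intervals. RPN4 has the highest values of both effects, and RPN14 is lowest for the mean of the 3 sites at -0.15.

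In the beta ring, PRE7 had the highest subunit effect of the 3 sites, 0.21 ± 0.02 (SE, adjusted p = 7.24e-11). The log2 ratios of PRE7 in singles ran from -0.09 over a median of 0.10 to 0.23, in doubles from -0.01 over 0.18 to 0.46, and in the 16 triple samples from 0.20 over 0.35 to 0.62. PRE7 had 0.59, 0.87, 0.85 and 0.61 in the quadruple mutant. Each range overlaps the next, with the highest triple sample (0.62) belonging to K5R/K8R/K12R.

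PRE1 followed with 0.15 ± 0.03 (adjusted p = 1.01e-05), and PRE3, which carries the caspase-like active site, with 0.13 (adjusted p = 9.53e-05). PUP3 gave 0.12, PRE4 0.10 and PUP1, which carries the trypsin-like site, 0.09 (adjusted p = 5.90e-05, 2.38e-04 and 0.0151). PRE2, which carries the chymotrypsin-like site, had an estimate of 0.05 and did not pass. The quadruple samples of PRE3 were uneven, at 0.15, 0.87, -0.00 and 0.20, whereas those of PRE1 lay together at 0.45, 0.43, 0.37 and 0.40. The 3-site calls of PRE1, PRE4, PUP1 and PUP3 ended with the arrays against MDY470 alone (0.14, -0.0071, 0.06 and 0.03), and those of PRE4 and PUP1 also with scaled arrays (0.04 and 0.0046).

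In the alpha ring, PRE6 gave 0.10 (adjusted p = 0.00992) and PRE8 0.07 (adjusted p = 7.34e-04) for the mean of the 3 sites. PRE6 turned to -0.056 with scaled arrays and -0.020 with MDY470 alone and was 0.06 without the quadruple mutant (adjusted p = 0.164), and PRE8 did not pass with scaled arrays (adjusted p = 0.0621) or MDY470 alone (adjusted p = 0.129). PRE10 was lower at -0.05 (adjusted p = 0.0367), a call that ended without K8R replicate 1, K16R replicate 2 or quadruple replicate 3 or 5 (adjusted p = 0.0514, 0.110, 0.0674 and 0.0836), and with the arrays of either parental strain alone (adjusted p = 0.268 and 0.289). SCL1, PRE5, PRE9 and PUP2 did not pass. PRE9, the only core subunit whose gene yeast can lose and live, stood lower in the quadruple mutant.

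In the lid, RPN3 gave 0.17 ± 0.02 (SE, adjusted p = 3.24e-11), RPN5 0.14 ± 0.02 (adjusted p = 1.02e-06) and RPN12 0.13 (adjusted p = 3.50e-08). The log2 ratios of RPN3 ran from -0.01 over a median of 0.06 to 0.11 in singles, from -0.01 over 0.15 to 0.31 in doubles and from 0.19 over 0.31 to 0.40 in triples, and were 0.69, 0.57, 0.53 and 0.81 in the quadruple mutant. The quadruple samples of RPN3 lay above all triples, and triples overlapped doubles between 0.19 and 0.31. RPN5 showed no such gradual order: its singles ran from -0.11 to 0.04 and its doubles from -0.33 to 0.16, with medians of -0.03 and -0.01, and its triples from 0.03 over 0.21 to 0.31.

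RPN6 gave 0.07 (adjusted p = 0.00142), and RPN11, the deubiquitinase of the lid, 0.05 (adjusted p = 0.0198), which did not pass without quadruple replicate 2 (0.03, adjusted p = 0.119). RPN7 was lower at -0.06 (adjusted p = 0.0199). That value rests on the quadruple mutant: RPN7 was -0.26, -0.25, -0.24 and -0.39 there, while the triples ran from -0.17 to 0.18 around a median of -0.01, and without the quadruple mutant its effect was -0.00 (adjusted p = 0.973). Leaving out quadruple replicate 2, 3 or 5 alone also ended its call (adjusted p = 0.0564, 0.0535 and 0.0505). RPN8 and RPN9 did not pass. With MDY470 alone RPN12, RPN6, RPN11 and RPN7 did not pass (adjusted p = 0.0527, 0.141, 0.622 and 0.902), nor did RPN11 and RPN7 with scaled arrays or RPN6 and RPN7 without an intercept. RPN11 kept its call in only 7 of the 12 alternative settings.

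In the base, the effects of the 3 sites were small. Among the ATPases, which unfold substrates and thread them into the core, RPT4 gave 0.07 (adjusted p = 0.0174), RPT5 0.06 (adjusted p = 0.00552) and RPT3 0.05 (adjusted p = 0.0470). RPT4 did not pass without K16R replicate 2 (adjusted p = 0.0509), and RPT3 did not pass after removal of any of 28 of the 54 samples. With MDY470 alone none of these ATPases passed, without an intercept RPT4 and RPT5 did not, and RPT3 turned to -0.047 with scaled arrays. Of the 12 alternative settings, RPT3 kept its call in 7, and RPT4 and RPT5 in 9 each. RPT1, RPT2 and RPT6, the scaffold subunits RPN1 and RPN2 and the ubiquitin receptors RPN10 and RPN13 did not pass. RPN14, the assembly chaperone, went the other way, at -0.15 ± 0.02 (SE, adjusted p = 4.14e-08).

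The log2 ratios of RPN14 in singles ran from -0.18 over a median of -0.06 to 0.06, in doubles from -0.21 over -0.12 to 0.01, and in triples from -0.71 over -0.33 to -0.11. RPN14 had -0.27, -0.46, -0.69 and -0.32 in the quadruple mutant. The quadruple samples lay within the range of the triples, and 4 of the 54 samples were above 0. It was the member called lower in each triple mutant, with means of -0.43 in K5R/K8R/K12R, -0.42 in K5R/K12R/K16R, -0.24 in K8R/K12R/K16R and -0.15 in K5R/K8R/K16R (limma, adjusted p = 0.046 in the last).

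For K16R, 7 members were called higher and 2 lower, where 20.3% of all genes were higher and 19.0% lower. Beside RPN4, RPN3 gave 0.19 ± 0.03 (SE, adjusted p = 1.27e-06), RPN2 0.18 ± 0.06 (adjusted p = 0.0186), PRE1 0.15 (adjusted p = 0.00839), PRE7 0.13 (adjusted p = 0.00810), RPN6 0.11 (adjusted p = 0.00503) and PRE8 0.09 (adjusted p = 0.0176). PRE9 was lower at -0.12 (adjusted p = 0.0352) and RPN14 at -0.11 (adjusted p = 0.0117). The K16R calls of PRE1, PRE7, PRE8, RPN2, RPN6 and RPN14 ended with the arrays of either parental strain alone, and that of RPN3 with MDY470 alone (0.11, adjusted p = 0.190). With scaled arrays PRE7 was 0.03 (adjusted p = 0.585), RPN2 0.07 (adjusted p = 0.188), PRE8 0.07 (adjusted p = 0.0547) and RPN14 -0.06 (adjusted p = 0.107), and without the quadruple mutant PRE7 was 0.08 (adjusted p = 0.0645) and PRE9 -0.07 (adjusted p = 0.199). PRE9 turned to 0.055 with MDY470 alone. The call of PRE9 also ended without quadruple replicate 2, 3 or 5, K5R/K8R replicate 2 or K5R/K12R replicate 2 (adjusted p = 0.0541, 0.0693, 0.0533, 0.0508 and 0.0643). The count of members lower was 1 without quadruple replicate 2 or 3, K5R/K8R replicate 2 or K5R/K12R replicate 2. Of the 12 alternative settings, the K16R call of PRE7 was kept in 7, and those of PRE8 and RPN14 in 8 each.

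Within the arrays against MDY453 alone, 2 members were called higher for K16R, and within those against MDY470 alone 1, RPN4 being called in both. The share of all genes called within either set of arrays was not counted. RPN12 differed between the sites: the mean of K5R, K8R and K12R gave 0.13 and K16R 0.03, a difference of -0.10 ± 0.03 (SE, adjusted p = 0.0381). It was the only member called in that comparison, in which 8.09% of all genes were higher for K16R and 11.4% lower.

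The other sites were also tested singly. K5R had 9 members higher and 1 lower, against 20.5% and 18.4% of all genes. K8R had 10 higher and 1 lower, against 19.4% and 18.1%, and K12R had 13 higher and 1 lower, against 26.0% and 24.4%. PRE1, PRE7, PUP3, RPN3, RPN5, RPN12 and RPN4 were called higher for all 3 sites, and RPN14 lower for all 3. With arrays scaled to 1 spread, K5R had 0 members called, K8R 4 and K12R 9, and with the arrays against MDY470 alone they had 0, 2 and 2. The shares above are those of the main fit, and whether calls over all genes fell likewise was not counted.

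Each mutant was also set against the parental strain of its arrays. The samples of a mutant came from 1 to 3 strains. The K16R strain MDY458 was set against MDY453 in replicate 1 and against MDY470 in replicate 3. In the singles, K5R, K8R and K12R had no member called in either direction by limma. At an unadjusted p under 0.05, K5R had 7 members higher and 1 lower, K8R 5 and 1, and K12R 10 and 0. Of all genes, 0.523% and 0.108% were higher and lower in K5R, 0.199% and 0.126% in K8R, and 1.79% and 1.08% in K12R. K16R had PRE6 and SCL1 higher and RPN8 lower, against 8.61% and 9.78% of all genes.

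The doubles held between 2 and 9 calls each, given here with the shares of all genes in brackets. K5R/K8R had 6 members higher and 0 lower (10.4% and 9.69% of all genes), K5R/K12R 9 and 0 (14.9% and 12.7%), and K8R/K12R 2 and 0 (10.0% and 11.3%). K5R/K16R had 3 and 1 (10.2% and 13.4%), K8R/K16R 5 and 0 (9.12% and 11.6%), and K12R/K16R 7 and 0 (12.7% and 13.4%). Several of these counts rest on single samples. Without its replicate 2, K5R/K8R had 1 call, K5R/K16R 2, K8R/K16R 1 and K12R/K16R 2. K12R/K16R had 4 without replicate 3, K8R/K16R 1 without replicate 4, and K5R/K12R 3 without replicate 1 and 5 without replicate 2. K8R/K12R had 0 or 1 without any of its 3. The lower member in K5R/K16R was RPT1 at -0.25.

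In the triples, K5R/K8R/K12R had 20 members higher and 1 lower, against 29.8% and 30.2% of all genes. K5R/K12R/K16R had 16 and 1, against 28.8% and 28.0%, and K8R/K12R/K16R had 17 and 1, against 23.5% and 23.1%. K5R/K8R/K16R had 13 and 1, against 19.2% and 21.1%, and its count of calls was 4, 8 and 7 without its replicate 1, 2 and 3. The median of the beta ring was 0.29, 0.25, 0.26 and 0.22 in K5R/K8R/K12R, K5R/K8R/K16R, K5R/K12R/K16R and K8R/K12R/K16R and 0.35 in the quadruple mutant, with 7, 4, 5, 6 and 7 of its 7 subunits called. The lid had a median of 0.15 in all 4 triples and 0.26 in the quadruple mutant. The base had 0.12, 0.13, 0.10 and 0.12 in the triples in that order and 0.07 in the quadruple mutant, where the 6 ATPases had a median of 0.04 with 1 called and the 4 non-ATPases 0.40 with 3 called.

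In the quadruple mutant 21 members were higher and 4 lower than in the parental strain, against 37.1% and 36.6% of all genes. After RPN4 came PRE7 at 0.73 ± 0.15 (SD, n = 4; 1.67-fold, adjusted p = 4.24e-15) and RPN3 at 0.65 ± 0.12 (1.56-fold, adjusted p = 6.23e-17). PRE6 averaged 0.59, RPN10 0.57, RPN2 0.51 and PRE1 0.41. The other 14 called higher ranged from 0.11 in PUP2 to 0.38 in RPN9. With arrays scaled to 1 spread the count of calls was 16.

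The members called lower in the quadruple mutant were RPN14 at -0.43 ± 0.19 (SD, n = 4; adjusted p = 3.07e-10), RPN7 at -0.29 ± 0.07 (adjusted p = 1.74e-06), PRE9 at -0.19 (adjusted p = 0.00877) and RPN8 at -0.10 (adjusted p = 0.0383, limma). PRE9 had -0.04, -0.15, -0.29 and -0.28 there, while in every triple mutant its mean was above 0. RPN7 and RPN14 were below 0 in the same 4 samples in which PRE7 and RPN3 were above it.

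**Figure D3:**
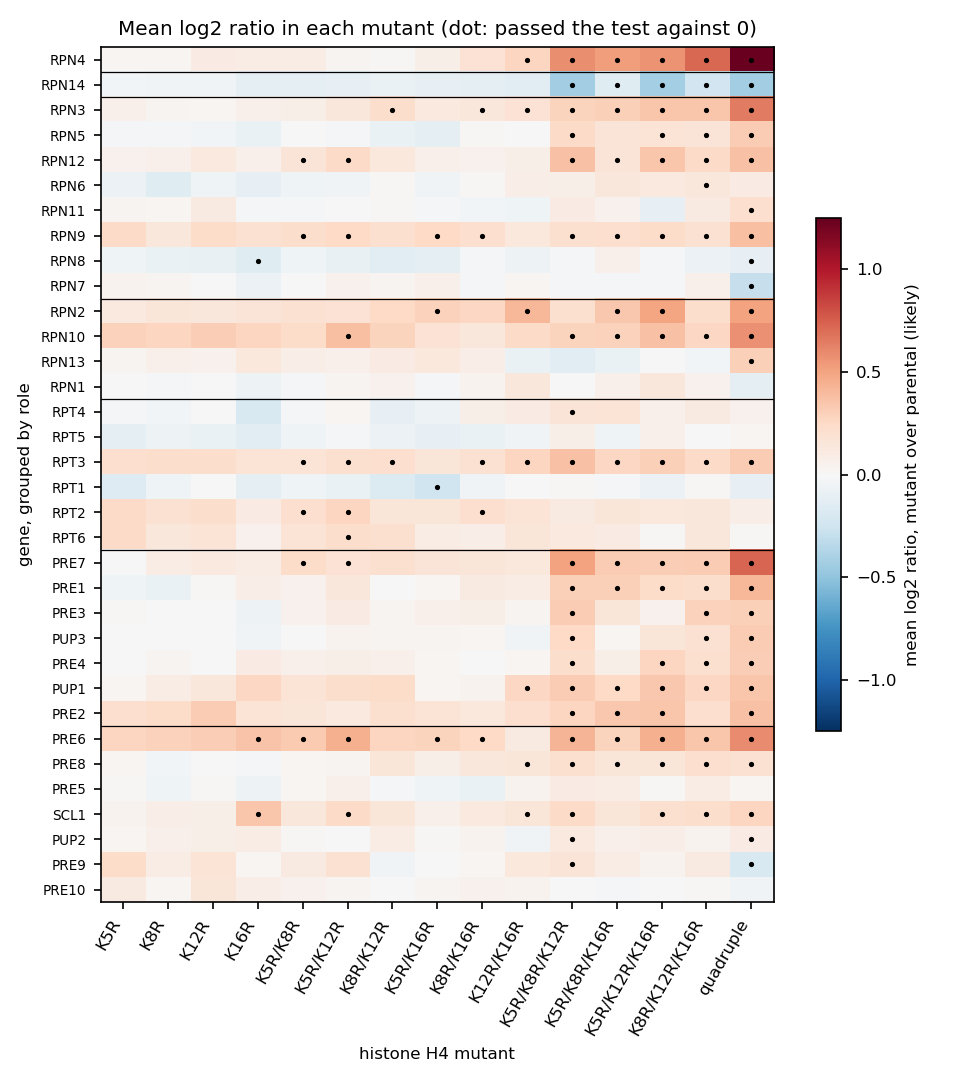
Mean log2 ratio (colour, likely mutant over parental) of each of the 34 members (rows) in each of the 15 mutants (columns, by number of substitutions). RPN4 is at 0.52 to 0.72 in the triples and 1.23 in the quadruple mutant, and RPN14 is below 0 in every triple and in the quadruple mutant.

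As steps, between doubles and singles no member was called (limma), against 4.33% and 5.49% of all genes. At an unadjusted p under 0.05, 4 members were higher and 0 lower, and RPN3 had 0.10 (adjusted p = 0.0545).

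The triples exceeded the doubles in 11 members and were lower in 2, against 24.2% and 23.6% of all genes. RPN5 rose by 0.22 ± 0.04 (SE, adjusted p = 3.26e-05), PRE1 by 0.20 (adjusted p = 0.00209), PRE7 by 0.19 (adjusted p = 4.05e-04), RPN3 by 0.17 (adjusted p = 3.98e-05) and RPN12 by 0.16 (adjusted p = 1.95e-04). PRE4, PRE3, PUP3, RPT4 and RPN6 rose by 0.15, 0.14, 0.13, 0.11 and 0.11. RPN14 fell by 0.21 ± 0.04 (adjusted p = 9.80e-06) and RPN13 by 0.13 (adjusted p = 0.0286). The beta ring held 5 of the 11 calls, and the alpha ring 0.

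The quadruple mutant differed from the mean of the triples in 8 members higher and 3 lower, against 30.0% and 24.4% of all genes. Beside RPN4, PRE7 rose by 0.38 ± 0.07 (SE, adjusted p = 9.26e-06), RPN13 by 0.38 ± 0.08 (adjusted p = 6.72e-05) and RPN3 by 0.33 ± 0.05 (adjusted p = 1.10e-06). PRE6 rose by 0.22, PUP3 by 0.18, RPN9 by 0.18 and RPN11 by 0.17 (adjusted p = 0.0374, 0.0326, 0.0407 and 0.00840). PRE9 fell by 0.30 (adjusted p = 9.52e-04), RPN7 by 0.28 (adjusted p = 4.31e-05) and RPN1 by 0.19 (adjusted p = 0.0365). Without quadruple replicate 2 the count was 6, and with arrays scaled to 1 spread it was 1.

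RPN13, a ubiquitin receptor, fell between doubles and triples and rose between triples and the quadruple mutant. Its median was 0.07 in singles and 0.08 in doubles. In 15 triple samples its median was -0.08, from -0.29 to 0.13, 1 triple value having been at the ratio limit, and in the quadruple mutant 0.26, from 0.13 to 0.54. The lowest quadruple sample and the highest triple sample were both at 0.13. Without the quadruple mutant its effect of the 3 sites was -0.08 (adjusted p = 0.0162).

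**Figure D4:**
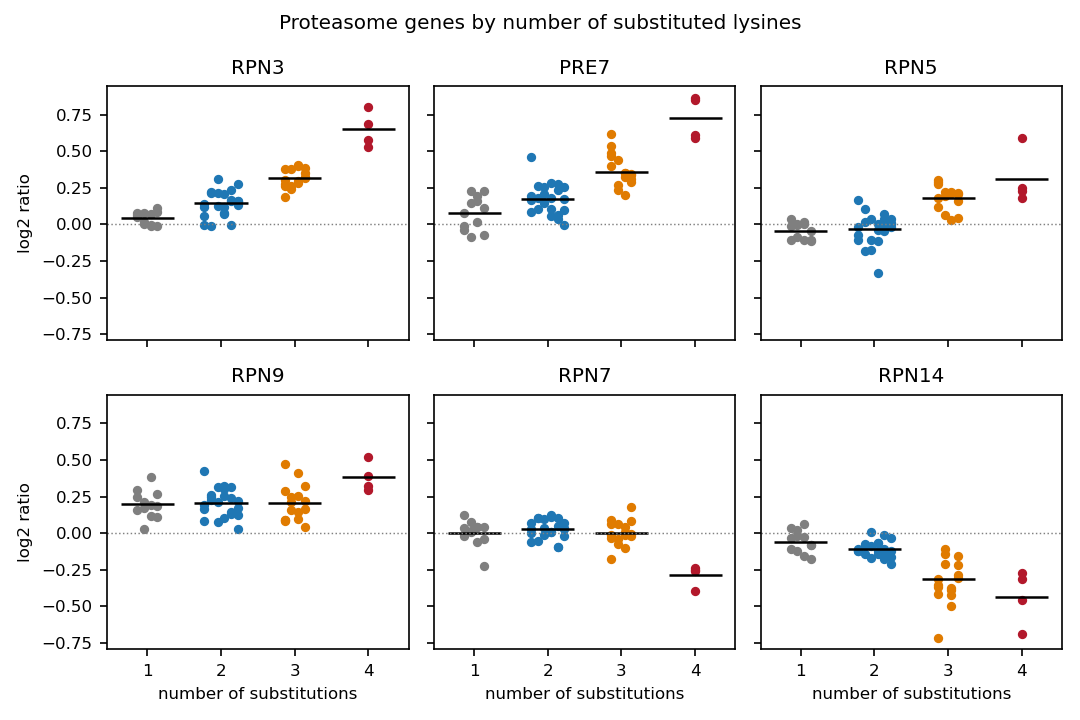
Log2 ratio (vertical axis, likely mutant over parental) of RPN3, PRE7, RPN5, RPN9, RPN7 and RPN14 in each sample (points) by number of substituted lysines (horizontal axis, 1 to 4). The medians of RPN3 and PRE7 are higher at each number, the quadruple samples of RPN7 lie at -0.24 or below, and RPN9 lies above 0 in all 54.

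Some members were above 0 in nearly every sample. RPN9 and RPT3 were above 0 in 54 of 54 samples, PRE6 in 53, RPN2 in 52, RPN12 and SCL1 in 51 and RPN10 and RPT2 in 50. RPN9, a lid subunit, had a median of 0.19 in singles, 0.22 in doubles and 0.19 in triples, with 0.36 in the quadruple mutant. RPN6, RPN8 and RPT5 were below 0 in all 12 singles. Such values cannot be told apart from a dye effect of the probe, and they stand in the counts against 0 above.

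The difference of each member from RPN4 was tested in the same samples. The effect of the 3 sites was lower than that on RPN4 for 33 of 33 other members, from -0.49 in RPN14 to -0.12 in PRE7 (adjusted p = 0.0111), but 90.3% of all genes were lower than RPN4 as well. With the arrays against MDY470 alone the count was 19. For K16R it was 32 of 33, against 90.4% of all genes, the exception being RPN2 at -0.20 ± 0.10 (SE, adjusted p = 0.0627). In the quadruple mutant it was 33 of 33, against 94.0%, from -1.67 in RPN14 to -0.48 in PRE7 (adjusted p = 1.41e-05). For triples over doubles it was 33 of 33, against 92.0%, from -0.69 in RPN14 to -0.27 in RPN5.

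Across the 15 mutant means, the median log2 ratio of the 32 subunits followed RPN4, with Pearson's r of 0.965 and Spearman's rho of 0.804. These points share arrays, centring and the growing spread of all genes, and most lie near 0, so the values are a description. Of single members, RPN3 (r = 0.941), RPN5 (0.934) and PRE7 (0.908) were most like RPN4, and RPN14 (-0.849), RPN7 (-0.711) and RPT2 (-0.676) least. An r over 0.5 was found in 20 of 32 subunits and in 31.9% of all genes. The genes most like RPN4 were not proteasome genes: BTN2 (0.989), ROQ1 (0.982), HSP78 (0.978), MOG1 (0.970) and MSP1 (0.969), and RPN3 stood at rank 68 of 5539.

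**Figure D5:**
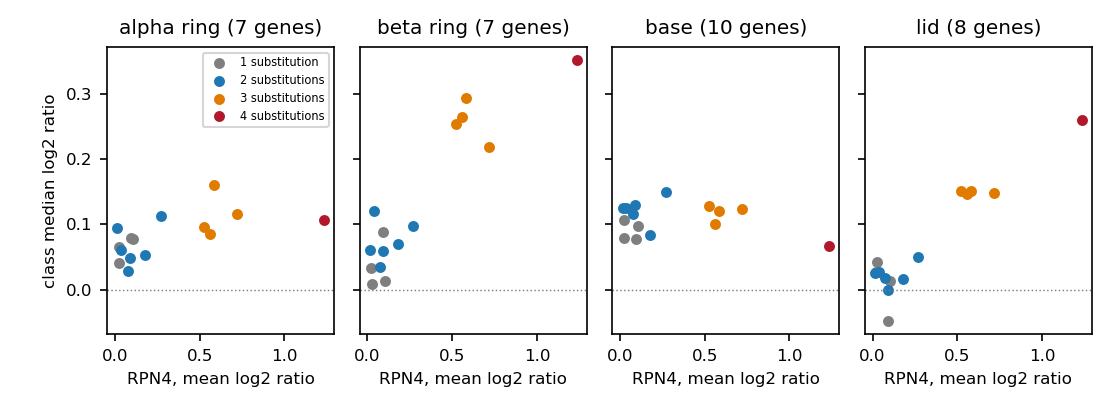
Median log2 ratio of the alpha ring, beta ring, base and lid (vertical axis) against the mean log2 ratio of RPN4 (horizontal axis) in each of the 15 mutants (points). The quadruple mutant lies furthest right at 1.23, with the beta ring at 0.35 and the base at 0.07.

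Genes that act with the proteasome were described in the same way, beside 32.3% of all genes higher and 31.5% lower for the 3 sites and 20.3% and 19.0% for K16R. Of 16 measured assembly and associated factors, 9 were higher and 1 lower for the average effect of K5R, K8R and K12R, with a median of 0.07. TMA17, a chaperone of base assembly, gave 0.58 and SPG5, a regulator needed in stationary phase, 0.56, while PBA1, a chaperone of the alpha ring, gave 0.19 and BLM10, an alternative cap of the core, 0.15 (all past the test). In the quadruple mutant SPG5 reached 1.77 ± 0.04 and TMA17 1.61 ± 0.28 (SD, n = 4 each), both with means above that of RPN4. For K16R, 6 of the 16 were higher and 0 lower.

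Of 18 ubiquitin system and shuttle genes, 10 were higher and 3 lower for the 3 sites (32.3% and 31.5% of all genes), and 10 higher and 2 lower for K16R (20.3% and 19.0%). UBI4, the stress-induced polyubiquitin gene, gave 0.51 and stood at 1.51 in the quadruple mutant. The conjugating enzyme genes UBC5 and UBC4 gave 0.32 and 0.31, and DOA4, which recycles ubiquitin, 0.24. Of the 3 genes for turnover of Rpn4, RAD6 gave 0.06 (adjusted p = 0.00684), while MUB1 had 0.05 and UBR2 0.03, neither past the test. In the quadruple mutant all 3 passed against the parental strain (limma). UBR2 was higher at 0.40 (adjusted p = 4.10e-07) and RAD6 at 0.23 (adjusted p = 2.23e-04), and MUB1 was lower at -0.16 (adjusted p = 0.0118).

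Of the 4 activators of RPN4 transcription, HSF1 gave 0.19 (adjusted p = 3.82e-08) and YAP1 0.16 (adjusted p = 8.63e-08), while PDR1 had 0.02 and PDR3 -0.01, neither past the test. For K16R, HSF1 gave 0.23 and YAP1 0.11, both past it. Among known targets of these factors, 17 of 20 heat shock genes were higher and 1 lower for the 3 sites (32.3% and 31.5% of all genes), and 16 higher and 0 lower for K16R (20.3% and 19.0%), with a median of 0.98 in the quadruple mutant. HSP42 gave 0.78, BTN2 0.62, HSP78 0.57 and AHA1 0.35 for the 3 sites. Yap1 targets had 4 of 14 higher and 3 lower, with OYE3 at 0.21, TSA1 at 0.15, TRX2 at -0.18 and GPX2 at -0.24. Targets of Pdr1 and Pdr3 had 3 of 10 higher and 1 lower, with TPO4 at 0.17, RSB1 at 0.16, YOR1 at 0.10 and PDR15 at -0.06. The counts of Yap1, Pdr1 and Pdr3 targets for the 3 sites lay near or below the shares of all genes. The part of any of these genes in the RPN4 values was not tested.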

How the data were processed

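The deposited table holds 1 log2 ratio per probe and array from 2-colour arrays of 15 histone H4 mutants. How the authors corrected background and normalized, and which dyes they used, is not given in the sources used here. Base 2 was inferred from the largest size, 6.64, which is log2 of a ratio of 100. Spot intensities were not used here, so the number of arrays limits the precision.

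Values at that limit (4346, 1 of them in a member gene) were treated as missing, and 1150 of 6720 probes that the annotation does not name were dropped. Genes were named from the platform annotation. Each array was centred on its median, probes of a gene were averaged, and a technical pair of the quadruple mutant was averaged, so that 55 arrays gave 54 samples and 5540 genes. Genes needed a value in a share of 0.667 of samples and in every mutant, which removed 0 genes.

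The models were linear fits of the log2 ratios by limma 3.58.1 (lmFit, then eBayes, in R 4.3.3; two-sided tests, Benjamini-Hochberg over all genes, threshold 0.05). The site model had 1 term per substitution beside an intercept. A second model gave each mutant a mean. The mutant strain was a random block (correlation 0.346 and 0.205, and 0.547 for each gene minus RPN4 in the site model). Tests against 0 leave out the spread of the parental strain. The labels do not say that every array is a separate culture, so p-values measure the spread between these samples, which may be partly technical. The fits were tested on simulated data in which effects added up over K5R, K8R and K12R. Such data cannot show how the site model handles effects that do not add up.

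The members, lists and tests were chosen with earlier results of these data known, and the steps between triples, doubles and singles were added after RPN4 had been seen. Named were all members, up to 4 genes of every other list by the smallest p for the averaged effect of K5R, K8R and K12R, the 5 genes most like RPN4, and the 3 members most and least like it. Alternatives changed the ratio limit, unnamed probes, centring, scaling, block, intercept, parental strain, title mark, technical pair and the quadruple mutant, or left out each sample in turn. No sequences are printed.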

Additional observations from a re-analysis of the deposited data

Results flagged for a closer look

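In 8 mutants with at least 4 samples, the 34 members gave 272 groups, and in 17 of them 1 sample stood apart from the others by Dixon's criterion, which chance meets in about 1 of 20 groups. None was tested further. Values are log2 ratios.

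In K5R/K8R/K12R, RPN2 was -0.58 in sample 5 against 0.30 to 0.49 in the others, and PRE4 was 0.41 in the same sample against 0.14 to 0.19. RPN14 was -0.71 and PRE5 0.18 in sample 2, against -0.41 to -0.31 and 0.08 to 0.10 in the others. PRE9 was 0.30 in sample 1 against 0.10 to 0.16.

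In the quadruple mutant, RPN5 was 0.59 and RPN7 -0.39 in sample 5, against 0.18 to 0.25 and -0.26 to -0.24 in the others, and PUP1 was 0.46 in sample 3 against 0.31 to 0.32. In K5R/K12R/K16R, PRE7 was 0.20 in sample 3 against 0.33 to 0.35, and RPN5 was 0.032 in sample 4 against 0.21 to 0.22.

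Among the doubles, RPN4 was 0.18 in K12R/K16R sample 1, below 0.30 in each of the others, and RPN11 was -0.19 in sample 2 of the same mutant, the one with the widest spread over all genes among the doubles, against -0.02 to 0.01. In K8R/K16R sample 2, RPN2 was 0.44 against 0.18 to 0.22 and RPN1 0.22 against -0.03 to 0.01. In K5R/K16R sample 2, RPN8 was -0.057 against -0.13 to -0.12 and RPT3 0.12 against 0.16, and in sample 3 PUP1 was 0.19 against -0.04 to -0.02.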

How the results depend on the processing

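No paired analysis was possible because replicate numbers only name samples in order and pair none across mutants. The search for the proteasome element in promoters was not run, since no promoter sequences were used here. RPN4 kept its direction and call for the averaged K5R, K8R and K12R effects, K16R and the step from doubles to triples under every alternative run.

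Counts below are members called. The share of all genes called was not counted for these settings, so a count that moved cannot be set beside it. With the values at the ratio limit kept, or unnamed probes kept, doubles over singles had 1. Without centring, K8R had 7, doubles over singles 2, and the mutants K12R 2, K16R 5, K8R/K12R 5, K5R/K16R 8 and K8R/K16R 10, where RPN4 was 0.22 (adjusted p = 0.0222).

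With arrays scaled to 1 spread, the mean of the 3 sites had 5 lower, and K16R 4 higher and 4 lower. K5R had 0 (RPN4 0.082, adjusted p = 0.181), K8R 4 and K12R 9. The mutants had 12 in K5R, 10 in K8R, 15 in K12R, 13 in K16R, 11 in K5R/K8R, 13 in K8R/K12R, 13 in K5R/K16R, 11 in K8R/K16R (RPN4 0.23, adjusted p = 0.00477), 12 in K12R/K16R and 16 in the quadruple mutant. Quadruple over triples had 1 (RPN4 0.083, adjusted p = 0.511) and doubles over singles 5. Reversed for the 3 sites were PRE6 -0.056, RPN9 -0.055 and RPT3 -0.047, and for K16R PRE6 -0.12.

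Without the random block, the mutants had 4 in K5R, 1 in K8R, 4 in K12R, 7 in K16R, 12 in K8R/K12R, 9 in K5R/K16R and 9 in K8R/K16R (RPN4 0.18, adjusted p = 0.0230), and doubles over singles 2. Without an intercept, the 3 sites had 1 lower, K16R 3 higher and 0 lower, K5R 5 (RPN4 0.084, adjusted p = 0.376) and K8R 3; PRE10 0.0026, RPT2 0.065 and RPT6 0.055 reversed. With MDY453 alone, K16R had 2 higher, K5R 5, K8R 4 and K12R 9. With MDY470 alone, the 3 sites had 6 higher and 1 lower, K16R 1 higher and 0 lower, K5R 0 (RPN4 0.17, adjusted p = 0.239), K8R 2, K12R 2, and 19 members were below RPN4; PRE4 -0.0071 and PRE6 -0.020 reversed for the 3 sites, and PRE9 0.055 for K16R. With technical replicates kept separate, K8R/K12R had 1. Without the quadruple mutant, K16R had 1 lower and RPN13 reversed to -0.077 for the 3 sites. The causes were not tested.

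Leaving out each sample in turn, the 3 sites had 15 to 19 higher and 1 to 3 lower, the lowest without quadruple replicate 3 or 5. K16R had 7 to 8 and 1 to 3, K5R 7 to 10, K8R 8 to 12 and K12R 14 to 16. K16R alone had 2 to 3, K5R/K8R 1 to 6, K5R/K12R 3 to 8, K8R/K12R 0 to 1, K5R/K16R 2 to 5, K8R/K16R 1 to 5 and K12R/K16R 2 to 8. K5R/K8R/K12R had 17 to 20, K5R/K8R/K16R 4 to 8, K5R/K12R/K16R 16 to 17, K8R/K12R/K16R 13 to 17 and the quadruple mutant 23 to 25. Quadruple over triples had 6 to 12, triples over doubles 12 to 16 and doubles over singles 0 to 1. RPN4 stayed at 0.32 to 0.36 for the 3 sites and 0.38 to 0.41 for K16R.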
